A study of Mus musculus with 6 samples.

Results

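The 3 fatty acid oxidation genes Acaa2, Cpt1a and Ppara were read as linear RNAs on 6 circular RNA (circRNA) microarrays of mouse kidney, 3 from animals under chronic intermittent hypoxia (CIH) and 3 from controls. They were taken by probe name (Acaa2 and Cpt1a) or by RefSeq mRNA accession (Ppara), and they make up 3 of the 50 linear RNA probes and 3 of the 14330 non-control probes on the array. All kidneys came from BALB/c mice. CIH animals spent 8 hours of each day over 8 weeks in a chamber whose oxygen alternated between 6% and 21%, with 60 seconds at each level and 30 such cycles in an hour. The exposure models obstructive sleep apnoea, a disorder of repeated pauses in breathing at night. The labels give neither the air of the control animals, nor the age and sex of the mice, nor whether each array is a separate mouse, so the spread between arrays may be technical. Apart from a blood RNA kit with globin removal, the labels mention no step that removes linear RNA before labelling. How much of each mRNA pool these probes read is therefore not known. The study asked which circRNAs differ in the kidney after CIH, and the linear RNA probes lie beside that question.

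Fatty acid beta-oxidation is the main source of energy of the proximal tubule of the kidney. Long-chain fatty acids enter mitochondria through the carnitine shuttle, whose outer-membrane enzyme, carnitine palmitoyltransferase 1 (Cpt1a), catalyses the rate-limiting step. Inside, each turn of the spiral ends with a thiolase, such as Acaa2 (acetyl-CoA acyltransferase), which releases acetyl-CoA. Ppara (peroxisome proliferator-activated receptor alpha) is a nuclear receptor that binds fatty acids and, paired with a retinoid X receptor, switches on genes of this pathway.

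The 250 bases before the start of Cpt1a and of Ppara are shown because Ppara encodes a regulator of the pathway that holds the other 2 genes, and its sites are direct repeats of a 6-letter core. They come from RefSeq on GRCm38.p6, both from the plus strand, at chr19:3323051-3323300 for Cpt1a and chr15:85735526-85735775 for Ppara. Windows were available for 2 of the 3 genes, and Acaa2, which had none, was not searched. Capitals mark the motif matches, 5′ to 3′.
Cpt1a: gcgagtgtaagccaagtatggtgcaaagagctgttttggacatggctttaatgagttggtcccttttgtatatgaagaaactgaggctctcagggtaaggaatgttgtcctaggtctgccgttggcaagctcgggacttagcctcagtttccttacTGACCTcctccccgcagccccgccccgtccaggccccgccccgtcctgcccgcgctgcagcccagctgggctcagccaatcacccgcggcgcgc
Ppara: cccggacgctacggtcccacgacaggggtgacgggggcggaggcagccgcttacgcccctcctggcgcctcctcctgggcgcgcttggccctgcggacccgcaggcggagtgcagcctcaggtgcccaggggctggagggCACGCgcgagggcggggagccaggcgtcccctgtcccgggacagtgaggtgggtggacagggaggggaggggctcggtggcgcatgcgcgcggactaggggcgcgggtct

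Both strands were searched for the repeat bound by PPAR with retinoid X receptor (AGGTCA, any 1 base, AGGTCA), for its core AGGTCA (which lies inside the repeat), and for the hypoxia response cores ACGTG and GCGTG. The full repeat was in neither window, and 0.0335% of the 32841 windows of this length in the table held it. Cpt1a held 1 core AGGTCA, on the minus strand and beginning 94 bases before the start, where 14.0% of all windows held at least 1. Ppara held 1 GCGTG on the minus strand, beginning 110 bases before the start, where 28.2% of all windows held it. ACGTG was in neither window, against 16.6% of all. GC content was 76.4% for Ppara and 59.6% for Cpt1a, against a median of 52.4%. A match is a description of the letters in these windows and not a measured binding site.

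Each probe was spotted 10 times per array, and values are means of the spots without an outlier flag, on a log2 scale where 0 is the 75th percentile of processed intensity on that array. The array files annotate the Acaa2 probe with NM_177470, the Cpt1a probe with NM_013495 and the Ppara probe with NM_011144. RefSeq lists 1 curated mRNA each for Acaa2 and Cpt1a and 2 for Ppara, and the probe's own sequence was not used here, so which Ppara transcript it reads is not known. All 60 spots of each gene were well above background and 0 were saturated. Outlier flags removed 4 Acaa2 spots, 1 Cpt1a spot and 3 Ppara spots. Local background was between 12.4 and 15.2 intensity units for Acaa2, against mean spot intensities of 431.5 to 727. Cpt1a, the dimmest probe of the 3, had mean intensities of 202 to 457. Ppara had 1195 to 1784. Brightness of different probes is not a measure of which mRNA is more abundant. Relative to the 15 probes named as negative on the same array, Acaa2 was 3.25 to 4.04 log2 units brighter, Cpt1a 2.21 to 3.37 and Ppara 4.56 to 5.37.

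The arrays lay on 2 slides. Every CIH array shared slide 1 with control 1, while controls 2 and 3 were alone on slide 2, which ties part of the group difference to slide. The 75th percentile of intensity was 449 to 527 over the 6 arrays. On the log2 scale used here the mean of the 50 linear RNA probes was -0.87 to -0.85 in CIH and -0.76 to -0.75 in control arrays, and the mean of the negative probes was -3.61 to -3.39 and -3.36 to -3.21. In both cases the highest CIH array was below the lowest control array, and their part in the values of the 3 genes was not tested. The kidney label could not be checked, since 0 of 21 kidney marker genes had a linear RNA probe, and 0 of 4 endothelial, 0 of 10 blood, 0 of 5 fat and 1 of 12 pancreatic markers (Chgb) had one. The labels also name pancreatic tissue and a blood RNA kit.

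Acaa2, the thiolase of the last step of the spiral, was lower in CIH kidneys. Its log2 level was -0.05, -0.03 and -0.14 in CIH arrays 1, 2 and 3, against 0.31, 0.46 and 0.67 in control arrays 1, 2 and 3. The CIH arrays lay close together, over a range of 0.11, and the controls spread over 0.36, with a gap of 0.34 between the highest CIH and the lowest control array. The geometric mean of scaled intensity in CIH was 68.1% of that in controls, a log2 difference of -0.56 (SE 0.10, n = 3 per group, limma). No unflagged spot crossed between groups, as the highest of 29 CIH spots was 0.03 and the lowest of 27 control spots 0.28. At the 6 positions on the array where no spot was flagged on any array, the difference was -0.58 to -0.50. These spots are repeats of 1 probe on 3 arrays per group, so they add no replicates. The group difference leaves slide out of account, and against control 1 on the same slide it was -0.38. Counted from the mean of the negative probes instead, Acaa2 was 3.56, 3.50 and 3.25 in CIH arrays 1, 2 and 3. Control arrays 1, 2 and 3 were at 3.54, 3.67 and 4.04, so CIH 1 lay above control 1 and the gap was gone. In bulk RNA, fewer cells that express a gene and less RNA per cell cannot be told apart.

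Cpt1a, the gate of the carnitine shuttle, had a lower mean in CIH with overlapping groups. Its log2 level was -1.38, -0.70 and -1.18 in CIH arrays 1, 2 and 3, against -0.74, -0.32 and 0.00 in control arrays 1, 2 and 3. CIH 2 lay 0.04 above control 1, and CIH was lower in the other 8 of 9 pairs of a CIH and a control array. The geometric mean in CIH was 60.1% of that in controls, a log2 difference of -0.73 (SE 0.23, n = 3 per group, limma). The difference at the 9 unflagged positions, which are repeats of 1 probe and not replicates, was -0.77 to -0.68. Slide is left out of account in the group difference here too.

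Ppara, the receptor of the pathway, had overlapping groups and a small difference of means. Its log2 level was 1.76, 1.59 and 1.82 in CIH arrays 1, 2 and 3, against 1.65, 1.35 and 1.82 in control arrays 1, 2 and 3. Control 3 was as high as the highest CIH array, control 2 lay below all others, and CIH was lower in 3 of 9 pairs. The log2 difference was 0.12 (SE 0.13, 95% interval -0.19 to 0.42, limma), which bounds the ratio of CIH to control between 0.88 and 1.34. This interval leaves slide out of account.

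**Figure D1:**
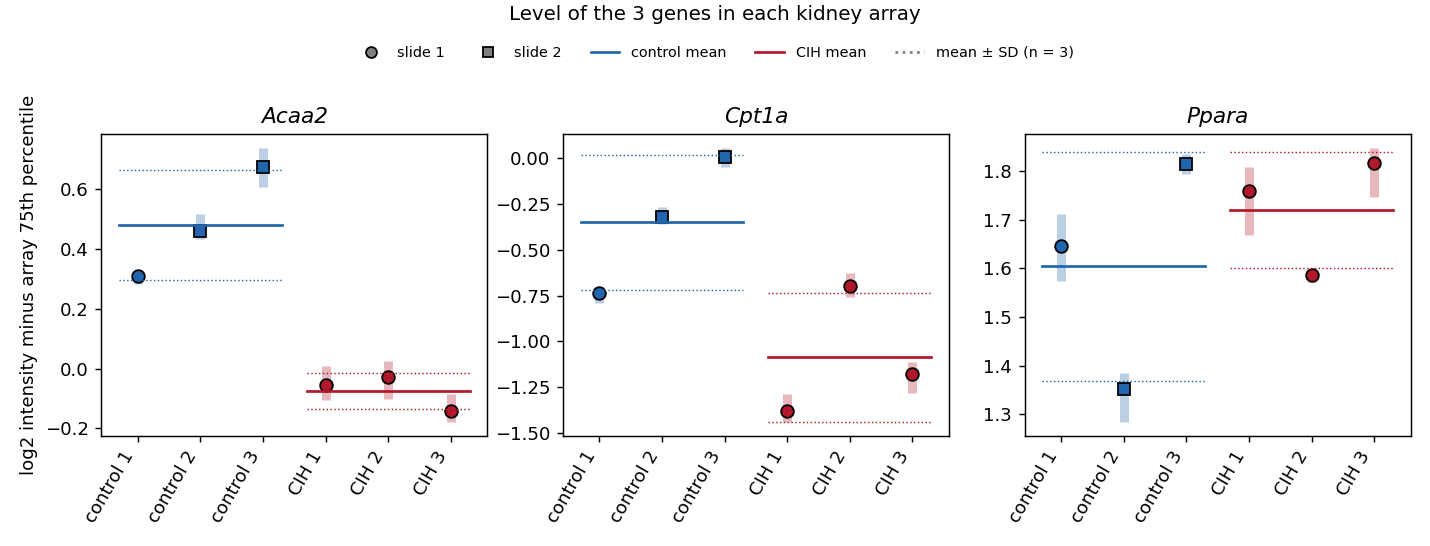
Each panel plots 1 gene, with the 6 arrays on the x axis and log2 intensity minus the array's 75th percentile on the y axis (scales differ between panels). Points are array means (circles slide 1, squares slide 2), bars the range of the unflagged spots, solid lines group means and dotted lines mean ± SD (n = 3). Acaa2 shows a gap of 0.34 between groups, Cpt1a in CIH 2 lies just above control 1, and the Ppara groups overlap widely.

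These 3 genes were proposed with their CIH and control values already known, so the differences above are descriptions, and no test is read from them. Of the 50 linear RNA probes, 2 (4.00%) passed the limma threshold with lower values in CIH, Acaa2 among them, and 0 passed with higher values. As Acaa2 was proposed with its values known, its place among them is no support for its difference. The count of probes past the threshold was 0 without control 2, 1 without CIH 3, 5 without CIH 2 and 0 with slide as a block. The call of Acaa2 was lost in these fits with 0. The count was 0 also with quantile normalization, in a joint fit with the circRNA probes and without moderation. The threshold was a Benjamini-Hochberg adjusted p under 0.05, and at an unadjusted limma p under 0.05 there were 8 probes with lower and 1 with higher values. Groups did not overlap with CIH lower for 14.0% of linear RNA probes and 14.5% of 14227 circRNA probes, and Acaa2 was 1 such probe. The difference was below 0 for 72.0% of linear RNA probes, and for 2 of the 3 genes. The median log2 difference was -0.56 over the 3 genes and -0.06 over all 50 probes, where the 10th percentile was -0.34 and the 90th was 0.09. From the lowest difference upward, Cpt1a was number 3, Acaa2 number 4 and Ppara number 46 of 50. A list of 50 genes of fatty acid oxidation and its control, among them Cpt2, Acadm, Hadha and Ppargc1a, had only these 3 members among the linear RNA probes. Of these, 1 passed with lower and 0 with higher values, and nothing is read from that count, since the genes were proposed with their values known.

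**Figure D2:**
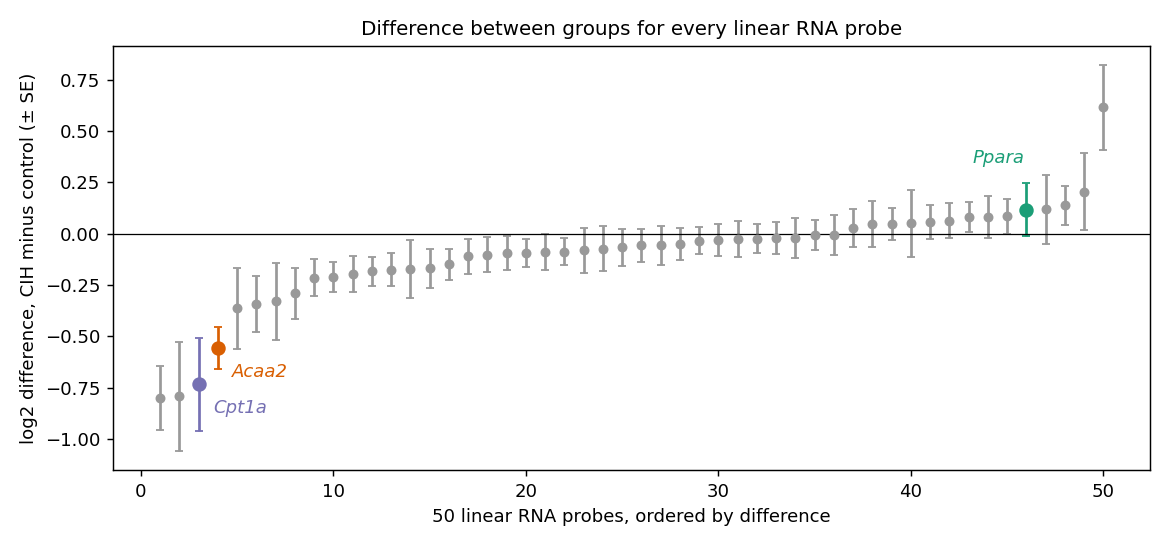
The 50 linear RNA probes are ordered on the x axis by their log2 difference, CIH minus control, on the y axis, with bars for the SE from limma. Cpt1a (-0.73) and Acaa2 (-0.56) are numbers 3 and 4 from the low end, and Ppara (0.12) is number 46.

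Within a group, the arrays differed by more than the spots of an array. The SD between arrays of a group, pooled over both groups, was 0.14 for Acaa2, 0.36 for Cpt1a and 0.19 for Ppara. The SD between spots of an array was 0.0324, 0.0379 and 0.0333. How much of the spread between arrays comes from the slide, from the scaling or from the kidneys was not tested. Cpt1a had the second widest spread within groups (number 2 of 50), Ppara was number 12 and Acaa2 number 17, against a median SD of 0.11. Among the controls, Acaa2 and Cpt1a ranked alike, with control 3 highest and control 1 lowest. Among the CIH arrays both were highest in CIH 2, but Acaa2 was lowest in CIH 3 and Cpt1a in CIH 1. Other linear RNA probes, among them Actb and Uhrf1bp1l, shared the order of the controls and the highest CIH value in CIH 2. These traits are therefore not particular to Acaa2 and Cpt1a. Ppara had another order, lowest in CIH 2 and in control 2.

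Slide 1 allows a comparison within a slide, of the 3 CIH arrays with control 1. On it, CIH minus control 1 was -0.38 for Acaa2, -0.35 for Cpt1a and 0.07 for Ppara. Control 1 itself lay below the mean of controls 2 and 3 by 0.26 for Acaa2 and by 0.58 for Cpt1a, and above it by 0.06 for Ppara. All CIH values of Acaa2 remained below control 1, while for Cpt1a control 1 fell inside the CIH range. Slide 2 held no CIH array, so a difference between slides and one among the control samples cannot be told apart.

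Ratios between probes within an array do not change when an array is scaled by a constant, and they show only whether 2 genes changed unequally. The log2 ratio of Acaa2 to Ppara was -1.81, -1.61 and -1.96 in CIH arrays 1, 2 and 3, against -1.34, -0.89 and -1.14 in control arrays 1, 2 and 3. All CIH arrays lay below all controls, with a gap of 0.28. The mean moved by -0.67 (SE 0.16), a 1.59-fold lower ratio in CIH, and by -0.46 against control 1 on the same slide. Groups did not overlap for 18.0% of the 1225 pairs of linear RNA probes, in either direction. Of the 49 other linear RNA probes taken over Ppara, 2 (4.08%) had all CIH arrays below all controls. As Acaa2 had been proposed for its difference, nothing is read from its place there.

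The log2 ratio of Cpt1a to Ppara was -3.14, -2.28 and -3.00 in CIH arrays 1, 2 and 3, against -2.38, -1.67 and -1.81 in control arrays 1, 2 and 3. CIH 2 lay above control 1, so the groups overlapped. The mean moved by -0.85 (SE 0.34), and by -0.42 against control 1.

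Acaa2 and Cpt1a, the enzymes at the end and at the entry of the pathway, had a ratio that varied within both groups. Their log2 ratio was 1.33, 0.67 and 1.04 in CIH arrays 1, 2 and 3, against 1.05, 0.78 and 0.67 in control arrays 1, 2 and 3. The control values lay inside the CIH range. The mean difference was 0.18 (SE 0.22, 95% interval -0.43 to 0.79), so unequal change of these enzymes was not resolved. Against control 1 alone it was -0.0338.

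**Figure D3:**
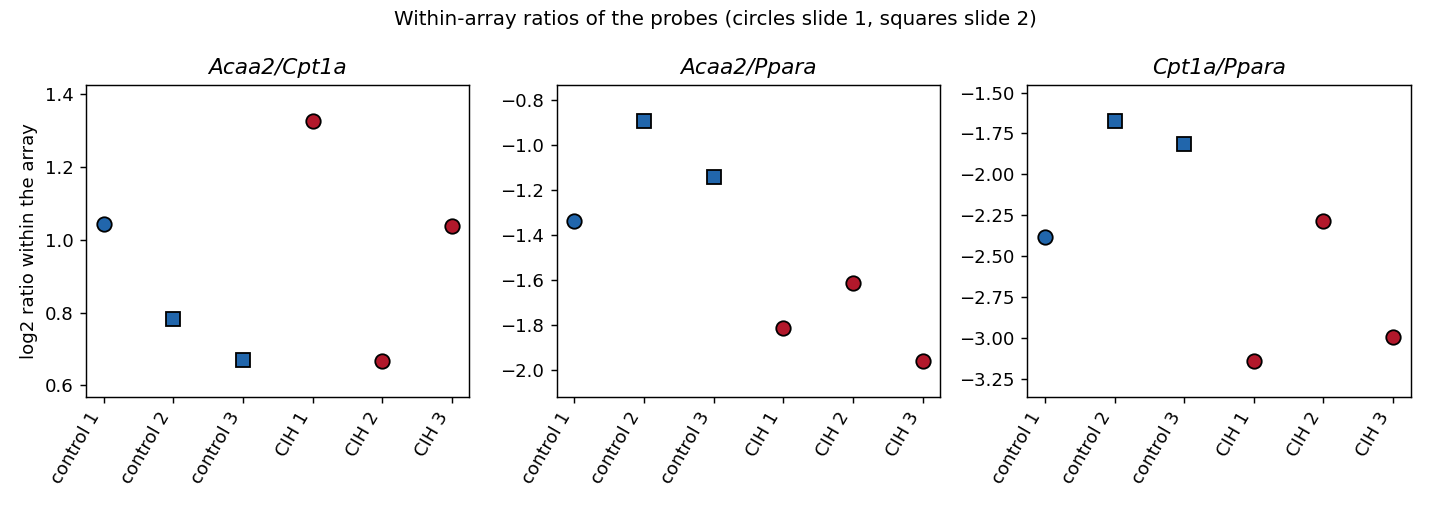
Each panel plots the log2 ratio of 2 probes within an array (y axis, scales differ) for the 6 arrays (x axis), red for CIH and blue for control. The ratio of Acaa2 to Ppara is below all controls in each CIH array, by a gap of 0.28, while the other ratios overlap between groups.

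A reference chosen from the linear RNAs changed the size of these differences. Centred on the mean of the 47 other linear RNA probes, which itself differed by -0.08, the differences were -0.47 for Acaa2, -0.65 for Cpt1a and 0.20 for Ppara. Relative to Actb, the beta-actin gene often used as a reference, they were -0.19 (SE 0.17), -0.37 (SE 0.14) and 0.48 (SE 0.24), with SEs from the spread of each gene's own arrays. Limma gave 1 SE, 0.29, shared by all 3 genes on this reference. Actb itself differed by -0.36. Actb was 0.91, 1.32 and 1.03 in CIH arrays 1, 2 and 3, against 1.21, 1.25 and 1.89 in control arrays 1, 2 and 3, so control 3 stood above the rest. Acaa2 minus Actb was -0.96, -1.35 and -1.17 in the CIH arrays, and was -0.90, -0.79 and -1.22 in controls 1, 2 and 3. On that reference control 3 lay below CIH 1 and CIH 3, and the gap between groups was gone. Cpt1a minus Actb was -2.29, -2.02 and -2.21 in the CIH arrays, and was -1.95, -1.57 and -1.89 in controls 1, 2 and 3. Here the overlap seen for Cpt1a was gone instead, with all CIH arrays below all controls by a gap of 0.07. Ppara minus Actb was 0.85, 0.26 and 0.79 in the CIH arrays, and was 0.44, 0.10 and -0.07 in controls 1, 2 and 3, with overlap. Both references were chosen after the data were seen.

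Profiles were compared with the 43 other linear RNA probes that have a gene symbol, as the root-mean-square (RMS) distance between log2 values over the 6 arrays, each probe centred on its own mean. Nearest to Acaa2 were Uhrf1bp1l at 0.12, Nup50, a nuclear pore protein, at 0.17 and Trp53rka, a kinase, at 0.18, against a median distance of 0.30. Nup50 and Trp53rka were dim, at -3.55 to -2.90 and -3.51 to -3.13, near the level of the negative probes. Acaa2's own RMS spread over the 6 arrays was also 0.30. Nearest to Cpt1a were Cav2, a caveolin, at 0.0862, Actb at 0.23 and Acaa2 at 0.24, against a median of 0.46. Cav2 moved almost in parallel with Cpt1a, both being lowest in CIH 1 and highest in control 3, but its level of -5.13 to -3.54 was below the mean of the negative probes on every array. Nearest to Ppara were Kcnn2, a potassium channel, at 0.11, H2-Q7, a class I histocompatibility antigen with near-identical copies in the genome, at 0.11 and Anxa8, an annexin, at 0.12, against a median of 0.23. Kcnn2, at -3.99 to -3.72, was likewise below the mean of the negative probes on every array. Ppara's own spread was 0.16, so a probe with little variation is near to it by this measure. H2-Q7 was not such a probe, as its own spread was 0.21. Likeness over 6 arrays that share slides and scaling says nothing of shared function.

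**Figure D4:**
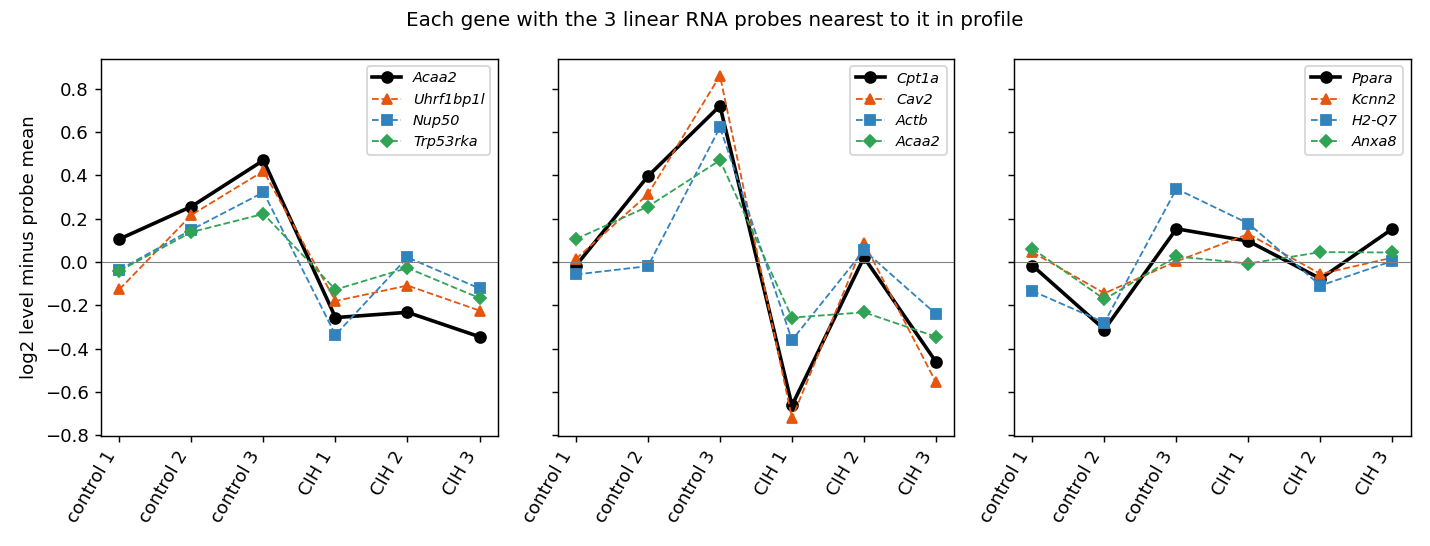
Each panel plots 1 gene (black) with the 3 linear RNA probes nearest in profile, as log2 level minus the probe's own mean (y axis) over the 6 arrays (x axis), the lines only guiding the eye. Cpt1a and Cav2 differ by an RMS distance of 0.0862, with CIH 1 lowest and control 3 highest in both.

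Over the other ways of processing, the estimates of Acaa2 and Cpt1a stayed below 0 in all 20 alternatives tried, from -0.64 to -0.19 and from -0.93 to -0.35. The alternatives reuse the same arrays, and the genes were proposed with their values known, so this count is no support for the differences. As the Acaa2 groups did not overlap, leaving out an array or comparing with control 1 alone could not turn its sign. Ppara ran from -0.01 to 0.48. The lowest value of Ppara came without control 2, the array where it was dimmest. Cpt1a was -0.93 without CIH 2 and -0.56 without control 3.

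**Figure D5:**
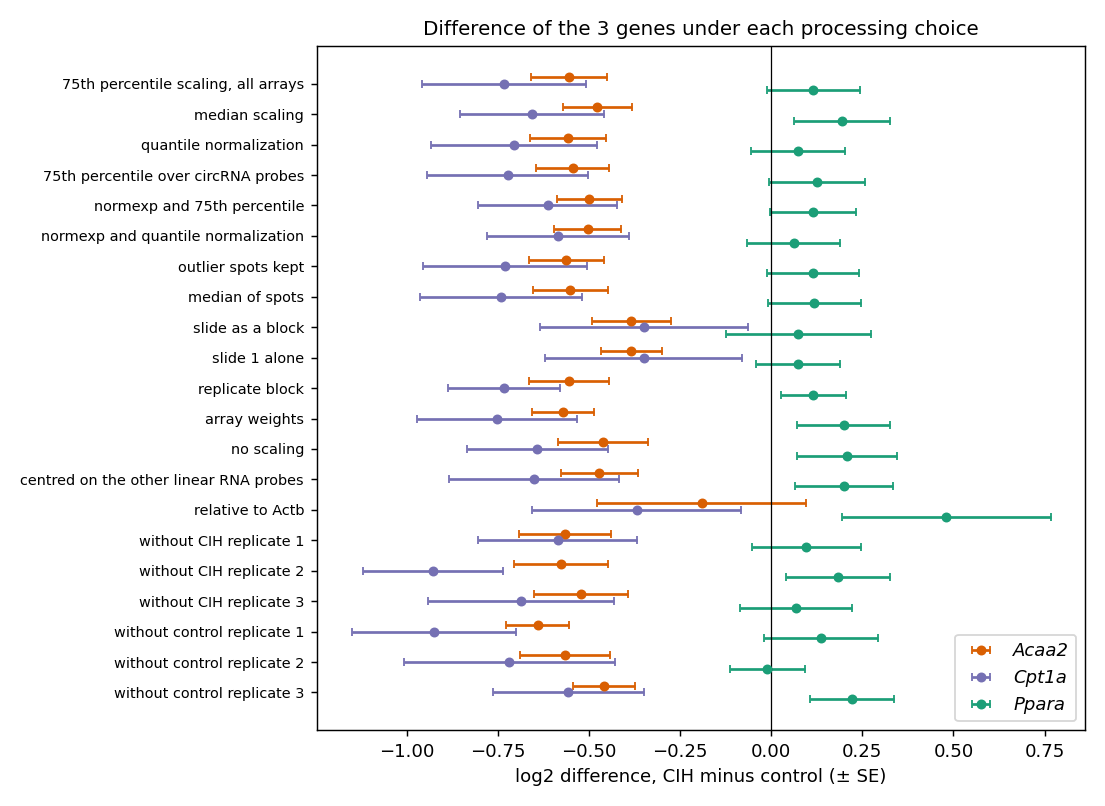
The y axis lists the processing choices and arrays left out, and the x axis gives the log2 difference, CIH minus control, with the SE from limma (shared by the 3 genes for Actb as reference). The estimates of Acaa2 and Cpt1a stay left of 0 throughout. They come nearest to it relative to Actb (-0.19 for Acaa2, SE 0.29, its bar crossing 0) and with slide as a block (-0.35 for Cpt1a, SE 0.29). Ppara lies between -0.01 and 0.48.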

How the data were processed

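The deposited scanner files hold intensity values from Agilent Feature Extraction (11.0.1.1 per the file headers, 9.1 per the submitters' processing notes). RNA (0.5 µg per sample) was labelled with Cy3 per the labels. Per the file headers, background was subtracted and each array detrended by itself, with no normalization between arrays. Groups came from the sample titles.

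The log2 processed intensity minus the array's 75th percentile over non-control spots was averaged over unflagged spots. The 50 linear RNA probes were fitted with limma (3.58.1, R 4.3.3), Benjamini-Hochberg threshold 0.05. A trial of the fit on simulated data held no slide effect, so it does not vouch for the threshold in this layout. SEs of ratios came from the spread of arrays (4 degrees of freedom). Symbols came from RefSeq (GRCm38.p6) for 44 of 50 accessions. The members, lists and tests were chosen with earlier results of these data known. The rule named the 3 members, measured genes of the pathway list, and the 3 nearest profiles per member. Normexp (offset 50) used the median spot signal, as the files hold no mean signal. The authors' value table holds circRNA probes only and was not used here. Same-numbered arrays' deviations over all probes correlated at 0.44, 0.29 and -0.07. Numbers were not taken as pairs in the fit, and whether they are pairs was not tested. With replicate number as a block the SE was 0.11 for Acaa2, 0.15 for Cpt1a and 0.09 for Ppara. Without it these were 0.10, 0.23 and 0.13.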

Additional observations from a re-analysis of the deposited data

How the results depend on the processing

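Leaving slide in the fit as a block and fitting slide 1 alone, with control 1 as the only control and assumed to vary like the others, gave the same estimates, since both compare CIH with control 1. They were -0.38 for Acaa2, -0.35 for Cpt1a, -0.46 for Acaa2 to Ppara, -0.42 for Cpt1a to Ppara and -0.034 for Acaa2 to Cpt1a, the last with its sign turned. Relative to Actb the values were -0.19 for Acaa2, -0.37 for Cpt1a and 0.48 for Ppara. Leaving out 1 array gave -0.64 to -0.46 for Acaa2, -0.93 to -0.56 for Cpt1a, -0.011 (without control 2) to 0.22 for Ppara, 0.021 to 0.35 for Acaa2 to Cpt1a, -0.78 to -0.55 for Acaa2 to Ppara and -1.11 to -0.68 for Cpt1a to Ppara. The 2 linear RNA probes past the limma threshold became 0 in each of 6 fits, namely slide 1 alone, slide as a block, no moderation, a joint fit with circRNA probes, and quantile normalization both with and without normexp. They became 1 with array weights, 4 with the replicate block, and 0 (without control 2) to 5 (without CIH 2) without 1 array, with 1 where CIH 3 was left out. The replicate block leaves the estimates as they are, at -0.56, -0.73 and 0.12. Other settings moved the estimates by less than 1 SD between replicates. The cause was not tested for any of these changes. The authors' value table could not be tried, as it holds none of the 3 probes. The number of arrays limits the precision, and Cpt1a had the widest spread between arrays of the 3 genes.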
